A study of Mus musculus with 21 samples.

Results

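Some genes that astrocytes switch on or raise when they become reactive were followed through the cerebellum and cultured granule cells of mice that lack cystatin B. The genes were Cd44, Osmr, S1pr3, Lcn2, Serpina3n, Ptx3, Steap4, Cp, Hspb1 and Tspo, and every probe set annotated to 1 of these symbols alone was taken, whatever its value. This gave 29 probe sets of 10 genes, out of 45037 probe sets that were tested and 18193 genes with a probe set of their own. Cp had 8 of the probe sets, Cd44 had 4, Osmr, S1pr3 and Tspo had 3 each, Steap4, Hspb1 and Ptx3 had 2 each, and Lcn2 and Serpina3n had 1 each.

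Reactive astrocytes are astrocytes that respond to injury, inflammation or loss of neurons by enlarging and by changing the genes they express. The response is known for a rise of the intermediate filament protein Gfap and for receptors and secreted proteins that link astrocytes with cytokines, the extracellular matrix and immune cells. None of the genes followed here is made by astrocytes alone, since microglia, neutrophils, endothelial cells and fibroblasts express several of them as well.

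The study addressed which genes change in the cerebellum before and after the first symptoms in a mouse model of the progressive myoclonus epilepsy EPM1, and in granule neurons grown apart from it. RNA was hybridized to Affymetrix mouse genome arrays, 1 sample to an array. All mice were of the 129SvJ strain background, and the knockout (Cstb-/-) lacks cystatin B, an inhibitor of cysteine cathepsins, in every cell. Wild type mice, littermates by the methods, served as controls.

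Whole cerebella at postnatal day 7 (P7, before symptoms) came from 4 Cstb-/- and 4 wild type mice, and whole cerebella at postnatal day 30 (P30, with symptoms) from 3 Cstb-/- and 3 wild type mice. The 3 Cstb-/- and 4 wild type samples of cerebellar granule cells were primary cultures from pups at postnatal day 5, harvested after 2 days in vitro. Meninges had been removed by dissection, the medium held serum, and cytosine arabinoside had been added against dividing glia, so any astrocytes in these cultures are those that remained after these steps. By the labels, 3 of 4 Cstb-/- and 1 of 4 wild type P7 samples were male, 2 of 3 Cstb-/- and 3 of 3 wild type P30 samples were male, and 1 of 3 Cstb-/- and 2 of 4 wild type cultures were male. Nothing in the labels says whether the cultures came from separate litters, so p-values there measure the spread between these samples, which may be technical.

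All values are log2 signals in which the median of each probe set had been set to 0 within each of the 3 experiments. A value of 1 thus means a signal 2 times the median of that experiment, the level of a gene is not kept, and neither genes nor experiments can be compared by level. With 6 arrays at P30, the lowest knockout value and the highest wild type value of a probe set whose groups do not overlap have the same size and opposite sign. A fold change is the mean of knockout minus the mean of wild type arrays, tested with limma over all 45037 probe sets, and a call needed a fold of at least 1.3 with an adjusted p below 0.05 in cerebella or below 0.01 in granule cells.

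Cstb itself was lower in every knockout array. Its 2 probe sets lay between -2.11 and -1.05 in knockout and between 1.05 and 1.57 in wild type P7 cerebella, between -1.42 and -1.29 in knockout and between 1.29 and 1.57 in wild type P30 cerebella, and between -2.07 and -1.70 in knockout and between 0 and 0.24 in wild type cultures. In the cultures, the sex genes Xist and Eif2s3y did not match the labelled sex on 4 arrays, which are called against their label below. Knockout 1 and 2 had the pattern of the opposite sex. Wild type 7 and 8 were low for neither gene (Xist -0.23 and 0.32, Eif2s3y 0.92 and 0), so their pattern was mixed. Knockout array 1 at P30 was labelled female, while its Xist value (-0.03) was like those of the male P30 arrays. The methods describe the mice of that age as males. In the cultures, 49.9% of probe sets had 2 or more of 7 arrays at exactly 0, against 0.81% at P7 and 0.842% at P30. Each of the 29 probe sets had 1 or 2 culture arrays at 0, the effect of which was not tested.

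**Figure D1:**
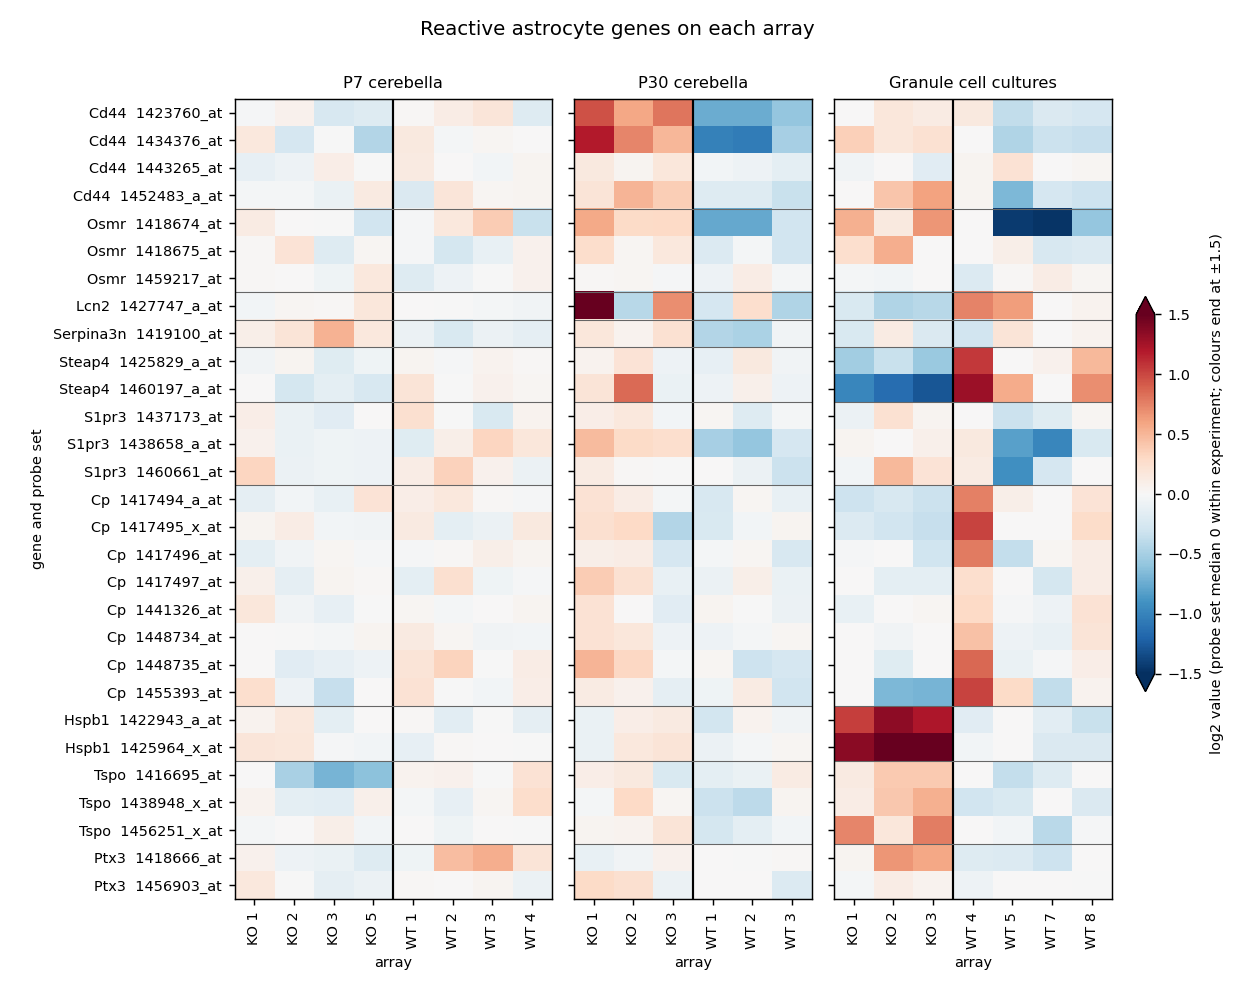
Colour map of the log2 value of the 29 probe sets (rows, grouped by gene) on each of 21 arrays (columns, knockout left of wild type in each experiment), with the median of each probe set at 0 within an experiment and colours ending at 1.5 in either direction. At P30 the first 2 Cd44 rows separate knockout from wild type most clearly, in the cultures the 2 Hspb1 rows are high and the 2 Steap4 rows low in all 3 knockout arrays, and at P7 no row was called.

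At P7 none of the 29 probe sets was called in either direction. Of all probe sets tested, 0.0% were called higher and 0.00666% were called lower in P7 knockout cerebella, so calls were rare among all genes as well. Knockout array 5 and wild type array 3 had a standard deviation over all probe sets of 0.23 and 0.22. It lay between 0.12 and 0.17 on the other P7 arrays. The bearing of this spread on the calls was not tested with both arrays left out. The fold change was above 0 for 8 and below 0 for 21 of the 29 probe sets, with a median of -0.06 on the log2 scale, against 0.01 over all probe sets. An unadjusted p under 0.05 was found for 5 of the 29 probe sets (1 higher, 4 lower in knockout), where 9.45% of all probe sets had one.

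Serpina3n, which codes for a secreted inhibitor of serine proteases, was the gene whose P7 groups did not overlap. It had values of 0.09, 0.20, 0.52 and 0.16 in knockout cerebella, against -0.09, -0.22, -0.09 and -0.14 in wild type cerebella. Every knockout array lay above every wild type array, which held for 2.8% of all probe sets at P7 (2.84% in the other direction), and knockout array 3 was the highest. The log2 fold change was 0.38 (SE 0.094), with an adjusted p of 0.325 by limma.

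Tspo codes for a protein of the outer mitochondrial membrane that binds cholesterol and is used to image activated glia. Its probe set 1416695_at had values of 0.01, -0.49, -0.70 and -0.61 in P7 knockout cerebella, against 0.05, 0.06, -0.01 and 0.21 in wild type cerebella. Knockout arrays 2, 3 and 5 were low and knockout array 1 lay within the wild type range. The log2 fold change was -0.53 (SE 0.134, adjusted p = 0.328 by limma), and without knockout array 1 it was -0.68 with an adjusted p of 0.0166, which is the 1 call that leaving out an array made at P7.

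The other Tspo probe sets did not move in this way, with log2 fold changes of -0.08 and 0.02. Markers of the choroid plexus, the secretory tissue attached to the cerebellum, varied over the same arrays. The mean of the 14 probe sets of 8 choroid plexus genes was -0.12, -2.0, -2.78 and -2.72 in knockout cerebella, against 0.36, 0.26, 0.08 and 0.47 in wild type cerebella. The same 3 arrays were low in both.

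Ptx3, a secreted pentraxin of the innate immune response, had values of 0.07, -0.07, -0.10 and -0.20 in knockout and -0.07, 0.47, 0.54 and 0.19 in wild type P7 cerebella at 1418666_at, and the groups overlapped (log2 fold change -0.36, SE 0.125, adjusted p = 0.440 by limma). The remaining 2 probe sets with an unadjusted p under 0.05 were Cp 1448735_at at -0.25 and Steap4 1460197_a_at at -0.23. For Cd44, Osmr, S1pr3, Lcn2 and Hspb1, the 13 probe sets had log2 fold changes between -0.17 and 0.10 at P7.

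Markers of other cell types also separated the P7 genotypes without a call. The mean of 17 probe sets of 8 meningeal fibroblast genes lay between -0.19 and -0.02 in knockout and between 0.05 and 0.12 in wild type cerebella, and 7 of the 17 had an unadjusted p under 0.05, all lower in knockout. The mean of 19 probe sets of 6 oligodendrocyte genes lay between 0.11 and 0.61 in knockout and between -0.61 and -0.09 in wild type cerebella, with all 19 fold changes above 0 (median 0.54) and 16 at an unadjusted p under 0.05. For granule neurons, the mean of 17 probe sets of 7 genes lay between 0.04 and 0.16 in knockout and between -0.18 and 0.005 in wild type cerebella. Of these 17 probe sets, 11 had a fold change above 0 and 6 below (median 0.04). An unadjusted p under 0.05 was found for 4, all higher in knockout. The part of these cell types and of the choroid plexus in the values of Serpina3n, Tspo, Ptx3, Cp and Steap4 at P7 was not tested.

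At P30, Cd44, Osmr and S1pr3 rose in Cstb-/- cerebella, and 28 of the 29 probe sets of the 10 genes had a fold change above 0. The called probe sets were 2 of 4 for Cd44, 1 of 3 for Osmr and 1 of 3 for S1pr3, so 4 of 29 were called higher and 0 called lower, where 0.138% of all probe sets were called higher and 0.00666% lower at P30. An unadjusted p under 0.05 was found for 11 of 29, all higher in knockout, where 7.72% of all probe sets had one. The median log2 fold change was 0.21, against -0.01 over all probe sets. All knockout arrays lay above all wild type arrays for 9 of the 29 probe sets, which held for 6.24% of all probe sets, and none lay below on every array, which held for 6.25%. The cerebella were whole tissue, in which more cells of a type and more RNA per cell cannot be told apart.

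**Figure D2:**
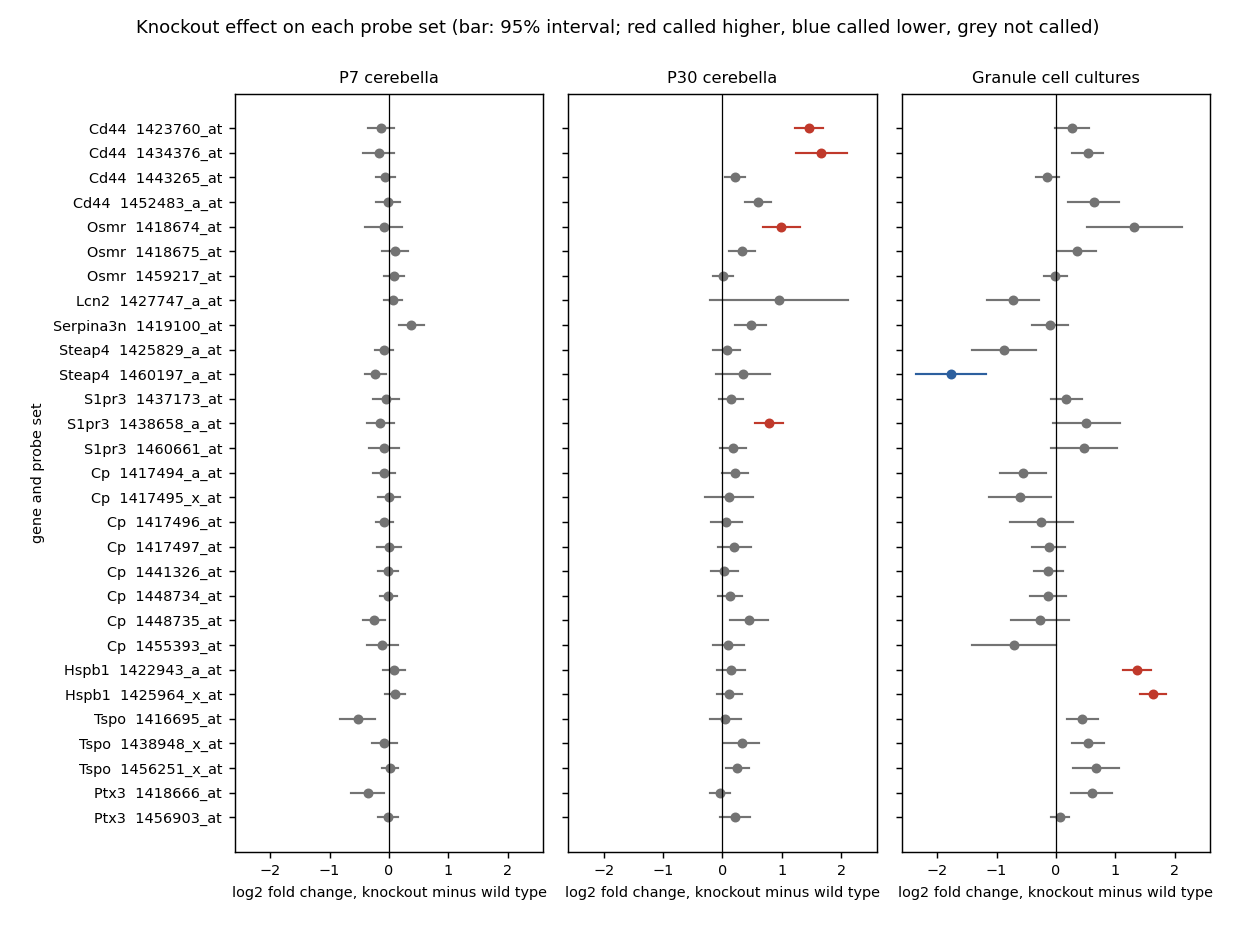
Log2 fold change of knockout minus wild type (points) with its 95% interval (bars) for the 29 probe sets in P7 cerebella, P30 cerebella and granule cell cultures, red where called higher, blue where called lower and grey where not called. The called values are 1.46 and 1.66 for Cd44, 0.99 for Osmr and 0.79 for S1pr3 at P30, and 1.36 and 1.64 for Hspb1 and -1.77 for Steap4 in the cultures.

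The 3 genes that rose at P30 all code for receptors of the cell surface. Their promoter sequences, the 250 bases before the start of the gene in RefSeq (GRCm38.p6), are shown because each of these genes was called higher at P30. The window of Cd44 was chr2:102901666-102901915 (minus strand), that of Osmr chr15:6874314-6874563 (minus strand) and that of S1pr3 chr13:51408368-51408617 (plus strand). Capitals mark matches, on either strand, to any of 5 patterns that were searched, TTCNNNGAA for STAT factors, TGANTCA for AP-1, GGG and CC with any 5 bases between them for NF-kappaB, TTGCNNAA for C/EBP and GAANNTTC for a heat shock element.
Cd44: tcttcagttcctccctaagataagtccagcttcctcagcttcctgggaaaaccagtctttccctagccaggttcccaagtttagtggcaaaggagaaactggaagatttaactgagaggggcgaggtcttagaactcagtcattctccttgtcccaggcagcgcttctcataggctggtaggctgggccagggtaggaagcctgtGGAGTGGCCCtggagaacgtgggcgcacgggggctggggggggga
Osmr: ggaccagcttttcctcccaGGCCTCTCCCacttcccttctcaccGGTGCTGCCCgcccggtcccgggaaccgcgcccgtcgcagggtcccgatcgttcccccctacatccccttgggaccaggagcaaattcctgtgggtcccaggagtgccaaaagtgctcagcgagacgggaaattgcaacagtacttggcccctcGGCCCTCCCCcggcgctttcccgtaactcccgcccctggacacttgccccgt
S1pr3: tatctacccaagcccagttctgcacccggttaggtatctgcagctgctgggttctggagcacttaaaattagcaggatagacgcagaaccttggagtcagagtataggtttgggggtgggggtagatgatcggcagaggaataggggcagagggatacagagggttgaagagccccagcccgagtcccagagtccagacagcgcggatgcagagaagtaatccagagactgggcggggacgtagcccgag
Cd44 had 1 match and Osmr had 3, each to the NF-kappaB pattern, which 45.8% of 32851 promoter windows of the same length hold, and S1pr3 had no match to any of the 5 patterns. A match of letters describes the sequence and is not a measured site.

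Cd44, the receptor for the matrix polymer hyaluronan, had the largest change of the 10 genes at P30. Probe set 1423760_at had values of 0.95, 0.58 and 0.80 in knockout cerebella, against -0.74, -0.75 and -0.58 in wild type cerebella. Every knockout value was far above every wild type value, and the spread within each genotype was small beside the gap. The signal was 2.76 times higher in knockout (log2 fold change 1.46, SE 0.104, 95% interval 1.23 to 1.70, adjusted p = 0.000457 by limma).

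Probe set 1434376_at of Cd44 had values of 1.19, 0.74 and 0.50 in knockout and -1.01, -1.05 and -0.50 in wild type P30 cerebella. The groups again did not overlap, with knockout array 1 the highest and wild type array 3 the nearest to the knockouts. The signal was 3.17 times higher in knockout (log2 fold change 1.66, SE 0.191, adjusted p = 0.0144 by limma). The other 2 Cd44 probe sets were also above wild type on every knockout array and were not called, with log2 fold changes of 0.60 (adjusted p = 0.0684 by limma) for 1452483_a_at and 0.21 (adjusted p = 0.553) for 1443265_at.

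Osmr, the subunit of the oncostatin M receptor that pairs with gp130, had values of 0.57, 0.29 and 0.30 in knockout and -0.76, -0.77 and -0.29 in wild type P30 cerebella at 1418674_at. The groups did not overlap, and wild type array 3 was again nearest to the knockouts. The signal was 1.99 times higher in knockout (log2 fold change 0.99, SE 0.139, adjusted p = 0.0413 by limma). Probe set 1418675_at was above wild type on every knockout array at 0.33 (adjusted p = 0.454), and 1459217_at was at 0.00.

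S1pr3, a receptor for sphingosine 1-phosphate, had values of 0.47, 0.29 and 0.26 in knockout and -0.50, -0.58 and -0.26 in wild type P30 cerebella at 1438658_a_at. Here too the groups did not overlap and wild type array 3 was the highest of its group. The signal was 1.72 times higher in knockout (log2 fold change 0.79, SE 0.102, adjusted p = 0.0282 by limma). The other S1pr3 probe sets, at 0.14 and 0.18, were not called.

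These calls differed in how far they rested on single arrays. Cd44 1423760_at was called in each of the 6 fits that left out 1 P30 array, with adjusted p between 0.000337 and 0.00642 by limma. Cd44 1434376_at lost its call without wild type array 1 or wild type array 2 (adjusted p up to 0.0890), and Osmr and S1pr3 lost theirs without any of knockout arrays 1, 2 and 3 and wild type arrays 1 and 2 (adjusted p up to 0.249 and 0.182). Without knockout array 1, the one labelled female, the 2 Cd44 probe sets were called, at 1.38 and 1.47.

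**Figure D3:**
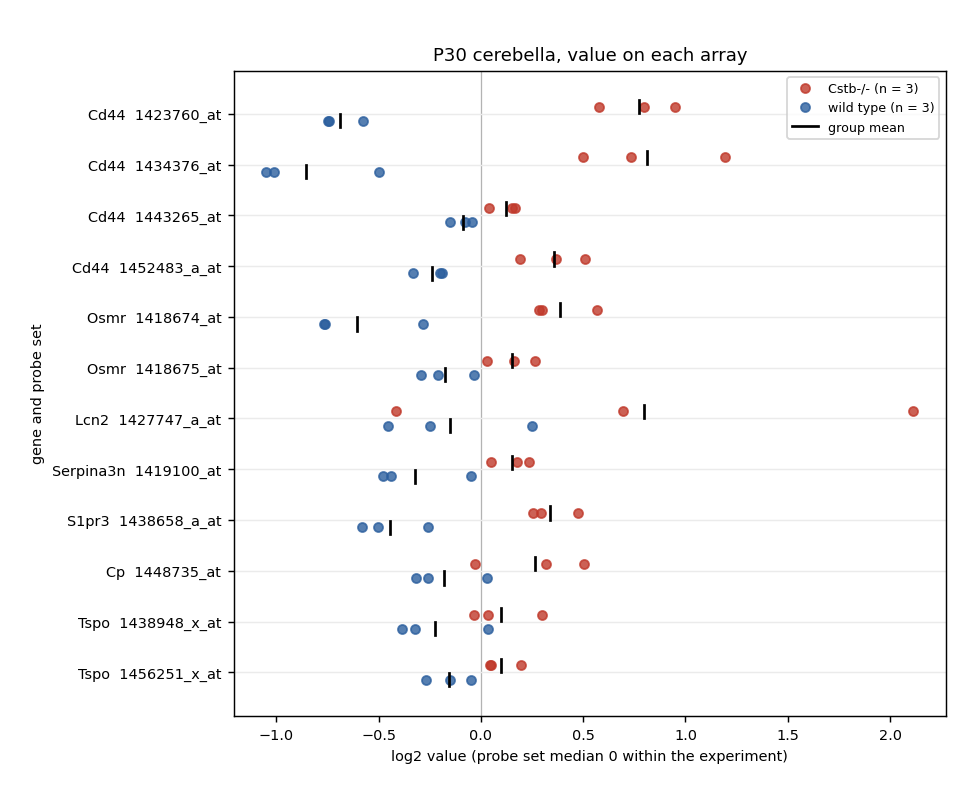
Log2 value (horizontal axis, median of each probe set 0) on each P30 array for the 11 member probe sets with an unadjusted p under 0.05 and for Lcn2, Cstb-/- points drawn above wild type points and group means as black bars. Cd44, Osmr, S1pr3 and Serpina3n separate the genotypes, whereas Lcn2 is spread from -0.42 to 2.11 over the knockout arrays and overlaps wild type.

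Among the secreted proteins, Lcn2 did not pass the test at P30. Lcn2 is a lipocalin that binds iron carriers of bacteria and is made by reactive astrocytes and, in large amounts, by neutrophils. It had values of 2.11, -0.42 and 0.70 in knockout cerebella, against -0.25, 0.25 and -0.45 in wild type cerebella. The groups overlapped, knockout array 1 was by far the highest, and knockout array 2 was close to the lowest wild type array.

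The log2 fold change of Lcn2 at P30 was 0.95 (SE 0.512, adjusted p = 0.712 by limma), and it was 0.29 without knockout array 1 and 1.56 without knockout array 2. Markers of neutrophils followed the same arrays. The mean of 7 neutrophil probe sets was 1.22, -0.94 and 0.79 in knockout cerebella, against -0.67, 0.74 and -1.02 in wild type cerebella. None of these 7 was called, the largest difference was 1.51 for S100a8 (adjusted p = 0.808 by limma), and their part in the Lcn2 values was not tested.

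Serpina3n had values of 0.17, 0.05 and 0.23 in knockout and -0.44, -0.48 and -0.05 in wild type P30 cerebella. The groups did not overlap, as at P7, but the difference was not called (log2 fold change 0.47, SE 0.117, adjusted p = 0.344 by limma). Ptx3 was near 0 at 1418666_at (-0.04, the 1 fold change below 0 among the 29) and at 0.21 at 1456903_at.

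The metal-handling genes were not called at P30. Steap4, a reductase of iron and copper, had a single high value of 0.85 in knockout array 2 at 1460197_a_at, while knockout arrays 1 and 3 had 0.20 and -0.10 and wild type arrays lay between -0.08 and 0.07. Ceruloplasmin, the copper-carrying ferroxidase coded by Cp, had log2 fold changes between 0.03 and 0.45 over its 8 probe sets. The highest, 1448735_at, had 0.50, 0.32 and -0.03 in knockout and 0.03, -0.32 and -0.26 in wild type cerebella, with overlap and an adjusted p of 0.519 by limma.

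Of the intracellular proteins, the small heat shock protein gene Hspb1 was at 0.14 and 0.11 at P30, and Tspo was at 0.05, 0.32 and 0.25. For Tspo 1456251_x_at every knockout array (0.05, 0.05 and 0.20) lay above every wild type array (-0.27, -0.15 and -0.05), with an adjusted p of 0.539 by limma. Neither gene was called in P30 cerebella.

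Other genes of the response were read from lists beside the 10 genes. The filament gene Gfap was called higher at 3 probe sets at P30 (2.15, 2.36 and 1.75), and all 9 probe sets of the 5 further genes that are raised in reactive astrocytes after any injury (Gfap, vimentin and others) had fold changes above 0, 3 of them called. Of 9 genes described in mouse reactive astrocytes after inflammation, 0 of 24 probe sets were called and 22 were above 0. Of 11 genes described after ischemia, 1 of 22 probe sets was called, the endotoxin co-receptor Cd14 at 1.41 (adjusted p = 0.0292 by limma), and 14 were above 0. With an unadjusted p under 0.05 there were 8 of the 24 and 4 of the 22, all higher, where 7.72% of all probe sets had one.

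The pathways around the 3 receptors were not called at P30. In oncostatin M and gp130 signaling 0 of 28 probe sets were called (median 0.05). Among CD44 ligands and hyaluronan genes 0 of 18 were called (median -0.01), and the list entries Spp1 and Hyal1 had no matched probe set. For sphingosine phosphate metabolism and receptors 0 of 13 were called (median 0.05). The largest of these differences was 0.42 for the hyaluronan-binding proteoglycan Vcan, with an adjusted p of 0.0856 by limma. No probe set was called among 23 of iron and lipocalin handling, 13 of other heat shock genes, 17 of TSPO partners, 6 of pentraxins and 4 of Serpina3a, Serpina3i and the neutrophil proteases Ctsg and Elane.

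Markers of microglia moved with the rise of Cd44, Osmr and S1pr3, and microglia express Cd44 too. Of 19 probe sets of 13 microglial genes, 11 of 8 genes were called higher at P30 (median 0.64), led by the adaptor Tyrobp at 2.20 and the complement gene C1qb at 2.09. The mean of the list lay between 0.39 and 0.64 in knockout and between -0.65 and -0.40 in wild type cerebella, without overlap. Of 35 probe sets of 12 astrocyte and Bergmann glia genes, 0 were called and 31 were above 0 (median 0.14). Among these 35, 12 had an unadjusted p under 0.05, all higher, where 7.72% of all probe sets had one. Their largest change was 0.55 for Aqp4 (adjusted p = 0.072 by limma). The mean of this list lay between 0.06 and 0.12 in knockout and between -0.07 and -0.04 in wild type cerebella, without overlap. The part of either cell type in the rise of the 3 receptors was not tested.

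The macrophage list separated the P30 genotypes too, with means between 0.08 and 0.51 in knockout and between -0.46 and -0.075 in wild type cerebella. Of its 12 probe sets (median 0.29), 0 were called, 11 were above 0 and 5 had an unadjusted p under 0.05, all higher. Its largest change was 1.835 for Lyz1 (adjusted p = 0.0605 by limma), and its part in the rise of the receptors was not tested. The remaining marker lists moved less at P30 or varied within a genotype. None of 11 probe sets of endothelium (median 0.09), 17 of pericytes and smooth muscle (0.04), 17 of meningeal fibroblasts (0.09), 19 of oligodendrocytes (-0.12) and 17 of granule neurons was called. The mean of the choroid plexus list was -2.82, 1.02 and -2.68 in knockout cerebella, against 0.33, -0.33 and 0.98 in wild type cerebella.

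**Figure D4:**
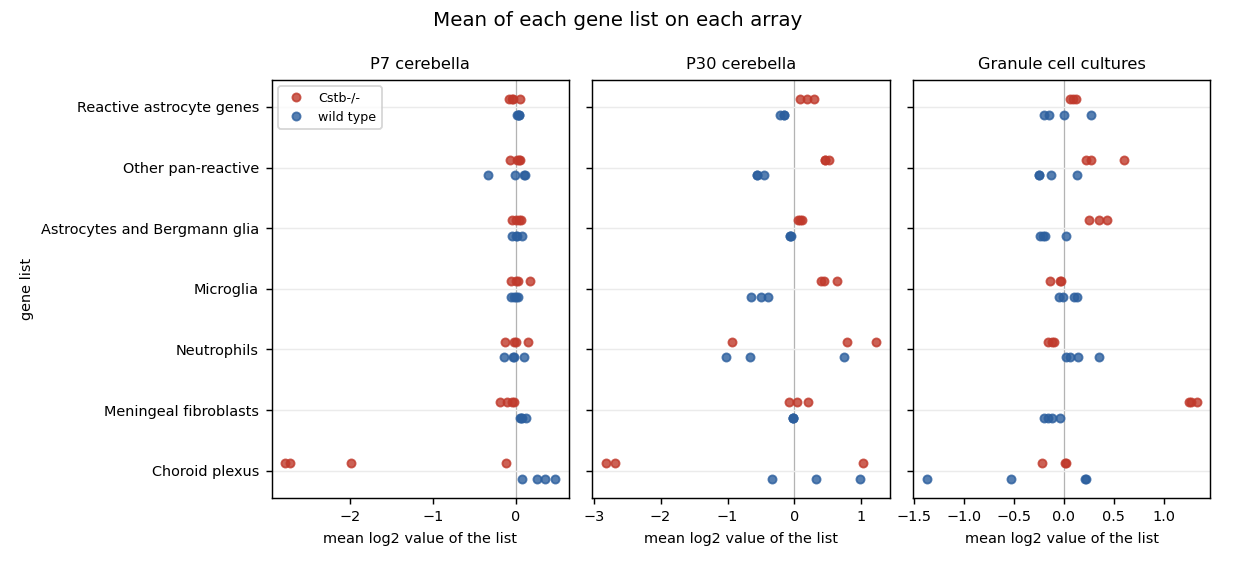
Mean log2 value (horizontal axis) of the reactive astrocyte genes and of 6 other gene lists on each array of the 3 experiments, Cstb-/- points above wild type points. At P30 the microglia list lies between 0.39 and 0.64 in knockout and between -0.65 and -0.40 in wild type arrays, and in the cultures the fibroblast list lies between 1.26 and 1.33 in knockout and between -0.20 and -0.03 in wild type arrays.

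The knockout effect at P30 was set against that at P7 in 1 fit of all 21 arrays in 6 groups. It was larger at P30 for 2 of 29 probe sets, both of Cd44, where 0.115% of all probe sets were called in this direction and 0.00888% in the other. For Cd44 1423760_at the difference of the log2 fold changes was 1.59 (SE 0.167, adjusted p = 1.9e-05 by limma), from 1.46 at P30 and -0.13 at P7, and for 1434376_at it was 1.84 (SE 0.224, adjusted p = 0.000172), from 1.66 and -0.17. Osmr (0.99 at P30 and -0.09 at P7 at 1418674_at) and S1pr3 (0.79 and -0.15 at 1438658_a_at) did not pass this test (adjusted p = 0.442 and 0.264 by limma; with array weights S1pr3 passed, at 1.00 with an adjusted p of 0.0213), so a call at P30 and none at P7 does not show that the effects differ for them. Serpina3n had log2 fold changes of 0.47 at P30 and 0.38 at P7.

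In granule cell cultures the genes split in both directions. Hspb1 rose and Steap4 fell in Cstb-/- cultures, and no other gene was called. Fold changes were above 0 at every probe set of Tspo, S1pr3 and Ptx3, at 3 of 4 of Cd44 and at 2 of 3 of Osmr, and below 0 at every probe set of Lcn2, Serpina3n and Cp. Of the 29 probe sets, 2 were called higher (both of Hspb1) and 1 lower (of Steap4), where 2.07% of all probe sets were called higher and 0.469% lower in the cultures. The fold change was above 0 for 15 and below 0 for 14 probe sets, with a median of 0.07, against -0.02 over all probe sets. An unadjusted p under 0.05 was found for 15 of 29 (10 higher, 5 lower), where 31.6% of all probe sets had one, and 8 were above and 5 below wild type on every array, where 13.4% and 9.33% of all probe sets were.

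The promoters of the 2 called genes are shown because these genes moved in opposite directions in the same cultures. Both windows are the 250 bases before the gene start in RefSeq (GRCm38.p6), chr5:135887669-135887918 for Hspb1 and chr5:7960222-7960471 for Steap4, both on the plus strand, with capitals as for the receptors above.
Hspb1: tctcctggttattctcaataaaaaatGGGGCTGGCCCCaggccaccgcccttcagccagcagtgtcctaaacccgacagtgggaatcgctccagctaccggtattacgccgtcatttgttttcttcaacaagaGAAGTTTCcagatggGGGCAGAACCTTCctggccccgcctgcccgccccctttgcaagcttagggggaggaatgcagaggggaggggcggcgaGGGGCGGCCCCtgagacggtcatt
Steap4: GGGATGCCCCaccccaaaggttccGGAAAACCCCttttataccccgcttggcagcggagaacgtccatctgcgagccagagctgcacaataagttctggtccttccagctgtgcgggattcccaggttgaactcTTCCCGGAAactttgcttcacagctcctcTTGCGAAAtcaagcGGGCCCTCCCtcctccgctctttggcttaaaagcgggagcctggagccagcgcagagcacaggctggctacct
Of the 9 genes with a window (Tspo had none), Hspb1 alone held the heat shock element pattern, at GAAGTTTC from 117 to 110 and at GAACCTTC from 97 to 90 bases before the start, and 6.69% of all windows hold it. The second of these overlaps a match to the NF-kappaB pattern. Steap4 alone held the STAT pattern, at TTCCCGGAA from 116 to 108 bases before the start, which 7.02% of all windows hold, and it also held the C/EBP pattern (TTGCGAAA, found in 4 of the 9 genes and in 9.56% of all windows). The AP-1 pattern was found in Cp alone of the 9 (6.75% of all windows), and the NF-kappaB pattern in 7 of the 9.

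Hspb1, a small heat shock chaperone that binds unfolding proteins and actin filaments, had values of 1.03, 1.35 and 1.21 in knockout cultures at 1422943_a_at, against -0.18, 0, -0.16 and -0.34 in wild type cultures. Probe set 1425964_x_at had 1.35, 1.59 and 1.61 in knockout cultures, against -0.04, 0, -0.22 and -0.21 in wild type cultures. Both probe sets separated the genotypes by more than 1 log2 unit, with little spread within either. The signal was 2.58 and 3.11 times higher in knockout (log2 fold changes 1.36, SE 0.106, and 1.64, SE 0.098, adjusted p = 0.000367 and 0.000109 by limma).

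Both Hspb1 calls were made in each of the 7 fits that left out 1 culture. Without the 4 cultures whose sex genes went against their label, which leaves 1 knockout and 2 wild type arrays, the values were 1.3 and 1.63, with too few arrays for the absence of a call to be read. Of 13 probe sets of 7 other heat shock genes (Cryab, Hspb2, Hspb6 and Hspb8 of the small heat shock proteins, their partner Bag3, and Hspa1a and Hspa1b), 1 was called, the alpha-crystallin gene Cryab at 1.54 (adjusted p = 0.00336 by limma), and 11 were above 0.

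Steap4 had values of -0.98, -1.14 and -1.28 in knockout cultures at 1460197_a_at, against 1.28, 0.56, 0 and 0.69 in wild type cultures. The knockout arrays were close together and all below the wild type arrays, which spread widely. The signal was 3.40 times lower in knockout (log2 fold change -1.77, SE 0.255, 95% interval -2.35 to -1.18, adjusted p = 0.00593 by limma). The other probe set, 1425829_a_at, had -0.52, -0.33 and -0.56 in knockout and 1.06, 0, 0.07 and 0.49 in wild type cultures, again without overlap (log2 fold change -0.88, SE 0.236, adjusted p = 0.0529).

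The call of Steap4 was lost without any 1 of knockout cultures 1, 2 and 3 and wild type cultures 5 and 8, with values between -1.84 and -1.69 and adjusted p up to 0.0365 against the threshold of 0.01. The fits without wild type culture 4 or 7 made the call, at -1.55 and -1.98. Without the 4 cultures against their sex label its value was -2.20. Of 23 probe sets of 10 other genes of iron and lipocalin handling, 1 was called, the related reductase Steap2, and it was higher (1.24, adjusted p = 0.00278 by limma).

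**Figure D5:**
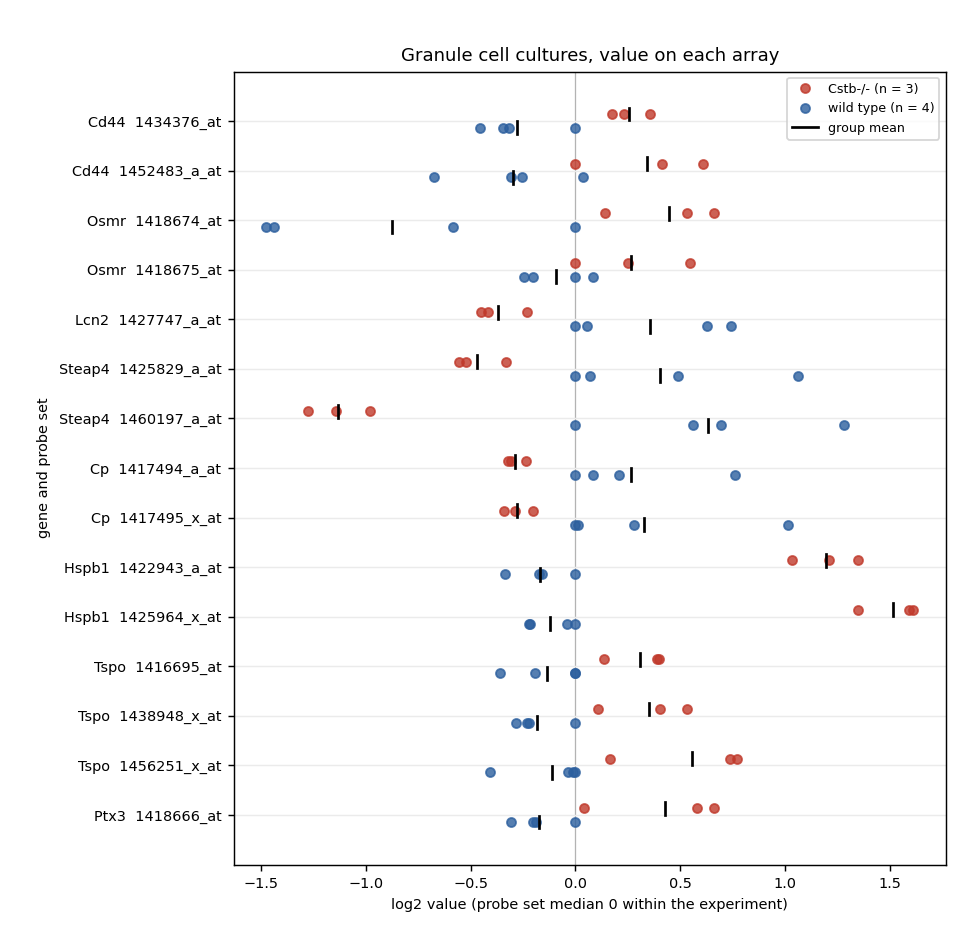
Log2 value (horizontal axis, median of each probe set 0) on each granule cell culture array for the 15 member probe sets with an unadjusted p under 0.05, Cstb-/- points drawn above wild type points and group means as black bars. Hspb1 lies between 1.03 and 1.61 in knockout and between -0.34 and 0 in wild type arrays, Steap4 1460197_a_at lies between -1.28 and -0.98 in knockout and between 0 and 1.28 in wild type arrays, and 1 array of each probe set at least sits at 0 by the centring.

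Tspo was above wild type on every knockout culture at all 3 probe sets. Probe set 1438948_x_at had 0.11, 0.40 and 0.53 in knockout and -0.28, -0.23, 0 and -0.22 in wild type cultures. The log2 fold changes of the 3 were 0.45, 0.53 and 0.67, with adjusted p of 0.0456, 0.0279 and 0.0415 by limma, under 0.05 but above the threshold of 0.01. Of 17 probe sets of TSPO partners none was called, and their largest difference was 0.78 for the acyl-CoA binding protein Dbi (adjusted p = 0.0429).

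Among the receptors, Osmr 1418674_at had 0.53, 0.14 and 0.66 in knockout and 0, -1.44, -1.48 and -0.58 in wild type cultures. The groups did not overlap, but wild type cultures 5 and 7 lay far below wild type culture 4, and the difference was not called (log2 fold change 1.32, SE 0.348, adjusted p = 0.0492 by limma). Cd44 1434376_at had 0.36, 0.18 and 0.23 in knockout and 0, -0.45, -0.32 and -0.35 in wild type cultures. Its groups did not overlap either (log2 fold change 0.53, SE 0.115, adjusted p = 0.0254), and the call was made without wild type culture 4 (adjusted p = 0.00854).

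The same receptors were less uniform at their other probe sets. Cd44 1452483_a_at was at 0.64 (adjusted p = 0.0658), 1423760_at at 0.27 and 1443265_at at -0.14, Osmr was at 0.36 and -0.01, and S1pr3 was at 0.17, 0.51 and 0.48 with overlap at all 3. Cd44 1423760_at, which had the clearest rise at P30, thus overlapped between genotypes in the cultures.

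Of the secreted proteins in the cultures, Ptx3 1418666_at had 0.04, 0.66 and 0.58 in knockout and -0.19, -0.20, -0.31 and 0 in wild type cultures. Knockout culture 1 was close to the wild type range, and the difference was not called (log2 fold change 0.60, SE 0.152, adjusted p = 0.0431 by limma). Lcn2 had -0.23, -0.45 and -0.42 in knockout and 0.74, 0.63, 0 and 0.06 in wild type cultures. It was below wild type on every knockout array, with wild type cultures 4 and 5 the highest (log2 fold change -0.72, SE 0.191, adjusted p = 0.0491), and Serpina3n was at -0.10 with overlap.

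Cp had fold changes below 0 at all 8 probe sets in the cultures, between -0.70 and -0.12 on the log2 scale, and none was called. Probe set 1417494_a_at had -0.31, -0.24 and -0.32 in knockout and 0.76, 0.08, 0 and 0.21 in wild type cultures. Wild type culture 4 was the highest array at each of the 8 Cp probe sets and at both Steap4 probe sets. Without it, 1417494_a_at was at -0.39 in place of -0.55, and Steap4 1460197_a_at was at -1.55 in place of -1.77.

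Markers of other cells moved with these changes in the cultures. Of 17 probe sets of 8 meningeal fibroblast genes, 11 of 7 genes were called higher in knockout (median 1.44), led by the collagen genes Col1a1 at 3.59, Col3a1 at 3.49 and Col1a2 at 3.41. The mean of the list lay between 1.26 and 1.33 in knockout and between -0.20 and -0.03 in wild type cultures. Of 17 probe sets of pericytes and smooth muscle 3 were called higher, the contractile genes Tagln at 2.39 and Acta2 at 2.25 and the growth factor receptor Pdgfrb at 1.97. The labels say that meninges were removed, and the part of these cells in the Hspb1 and Steap4 values was not tested.

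Astrocyte markers rose in part as well. Of 35 probe sets of 12 astrocyte and Bergmann glia genes, 7 of 3 genes were called higher (median 0.44), among them the gap junction gene Gja1 at 1.67, Aldh1l1 at 0.76 and Aldoc at 0.64, and the mean lay between 0.25 and 0.43 in knockout and between -0.24 and 0.02 in wild type cultures. No probe set was called among 19 of microglia (median -0.14), 12 of macrophages (-0.02), 7 of neutrophils (-0.26), 11 of endothelium (-0.01), 14 of choroid plexus (-0.05) and 19 of oligodendrocytes (-0.47). Of 17 probe sets of granule neurons 1 was called, the protocadherin Fat2 lower at -0.62 (adjusted p = 0.00382 by limma). Levels are not kept, so the granule cell label could not be checked by the level of its markers.

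Further genes of reactive astrocytes were called in the cultures by list. Of 22 probe sets of the list described after ischemia, 7 of 6 genes were called higher, led by the membrane protein gene Emp1 at 2.06, S100a10 at 1.46, the prostaglandin synthase gene Ptgs2 at 1.23 and Cd109 at 1.06. Of 24 probe sets described after inflammation 1 was called higher, the matrix gene Fbln5 at 0.98, and 19 were below 0 (median -0.14). Of the 9 probe sets raised after any injury 2 were called, the protease inhibitor Timp1 at 1.12 and vimentin (Vim) at 0.95, and no probe set of Gfap was called. Fold changes were above 0 for 8 of the 9. Cxcl10 of this list was at -0.67, below wild type on every knockout array (adjusted p = 0.0248 by limma). Several of these genes, among them Vim, Timp1, Emp1 and S100a10, are expressed by fibroblasts too.

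The pathways around the receptors had calls in the cultures, all of them higher in knockout. In oncostatin M and gp130 signaling these were 2 of 28, the signaling inhibitor Socs3 at 1.09 and the shared receptor subunit Il6st at 0.90. Among CD44 ligands and hyaluronan genes, where Spp1 and Hyal1 had no matched probe set, these were 5 of 18. They were of Vcan (1.12) and of Hmmr (1.3), a hyaluronan receptor and not a CD44 ligand. None of 13 probe sets of sphingosine phosphate (median 0.14), 6 of pentraxins (-0.23) and 4 of Serpina3a, Serpina3i, Ctsg and Elane (-0.36) was called.

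The knockout effect in the cultures differed from that at P7 for 11 of 29 probe sets in the fit of all 21 arrays, 9 higher and 2 lower, where 13% of all probe sets were called higher and 7.32% lower in this contrast. The P7 arrays are shared with the contrast of P30 and P7, so the 2 contrasts are not independent. The fit also takes 1 spread per probe set over all groups, so the spread of the cultures may be understated in it. At Steap4 1425829_a_at the SE of the difference was 0.222, below the 0.236 of the culture effect alone. The differences were 1.28 and 1.54 for Hspb1, 1.41 for Osmr 1418674_at, 0.96 for Ptx3 1418666_at, 0.98, 0.61 and 0.65 for Tspo, 0.71 and 0.65 for Cd44 and -0.79 and -1.53 for Steap4. Hspb1 had the smallest adjusted p (2.0e-06 and 3.7e-08 by limma), from 1.36 and 1.64 in the cultures and 0.08 and 0.10 at P7. Tspo 1416695_at was above wild type in the cultures (0.45) and below it at P7 (-0.53), and its difference of 0.98 had an adjusted p of 0.00114.

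Taken gene by gene, the picture followed the probe sets with some losses. With 1 probe set per gene (the one with the lowest number), 0 of 10 genes were called at P7, Cd44 and Osmr at P30 and Hspb1 in the cultures. When the probe sets of a gene were averaged, 0 of 10 were called at P7, Cd44 alone at P30, and Hspb1 and Tspo (higher) and Steap4 (lower) in the cultures. Over 18193 genes with 1 probe set each, 0.0% were called higher and 0.0055% lower at P7, 0.209% higher and 0.0055% lower at P30, and 3.18% higher and 0.132% lower in the cultures. With means of probe sets these shares were 0.0% and 0.022% at P7, 0.269% and 0.022% at P30, and 4.31% and 0.242% in the cultures.

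The 10 genes did not vary as a block. With group means removed, pairs of probe sets of the same gene had a median Pearson r of 0.04 over the 8 P7 arrays, 0.64 over the 6 P30 arrays and 0.78 over the 7 cultures, and pairs from different genes had 0.02, 0.04 and 0.23 over the same arrays. There were 46 pairs of the first kind and 360 of the second, and pairs share the arrays. Most pairs of the first kind came from the 8 probe sets of Cp, and Lcn2 and Serpina3n, with 1 probe set each, gave none. The same-gene median thus describes Cp above all, and at P7, where nothing was called, it was near 0.

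The genes outside the 10 whose values over the 21 arrays were most like those of each called gene, with the mean of each experiment removed, were named for description. For Cd44 these were Ctsc, Pycard and Plek (Pearson r between 0.89 and 0.90), and for S1pr3 they were Ppp1r3c, Nfkbiz and Pycard (between 0.86 and 0.89). For Osmr they were Rin2, Rida and Lxn (between 0.92 and 0.94), for Hspb1 Tpm1, Vgll3 and Cenpa (all at 0.97), and for Steap4 Usp18, Rnf213 and Kcnq5 (between 0.88 and 0.91). Ctsc, the gene of cathepsin C, had log2 fold changes of -0.39 at P7, 1.34 at P30 and 0.52 in the cultures, beside -0.17, 1.66 and 0.53 for Cd44 1434376_at. Usp18 had 0.13, 0.79 and -3.03, beside -0.23, 0.34 and -1.77 for Steap4 1460197_a_at.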

How the data were processed

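The deposited values are log2 signals. By the methods the authors made them with RMA (background adjustment, quantile normalization and summarization) and set every probe set to a median of 0. The software version is not given in the sources used here. Precision is limited by how many arrays each group has, and these values do not show how far a signal stood above background.

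The tables hold 45101 probe sets, of which 64 controls were set aside. Genes were named from the platform annotation, checked against RefSeq (GRCm38.p6), which changed 0 symbols. Knockout was compared with wild type within each experiment by limma 3.58.1 in R 4.3.3 (lmFit, eBayes, 2-sided, Benjamini-Hochberg over 45037 probe sets), at the fold and adjusted p of the methods. Differences of knockout effects were contrasts in 1 fit of 6 groups, at an adjusted p under 0.05. Tables and plots were made in Python 3.11.15 with pandas 2.3.3, numpy 2.4.6 and matplotlib 3.10.9. The fit was tested on simulated data.

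The members, the 11 related gene lists, the 10 marker lists and the tests were chosen with earlier results of these data known. A gene was matched for 81 of 96 entries of the related lists and for 84 of 90 marker entries. All member probe sets could be named, with up to 4 called genes of each list (or the 1 with the largest change where none was called) and the 3 most alike genes of each called member. Alternatives were the methods' t-test, no fold threshold, robust variance, array weights, 1 fit over all groups, re-centred arrays, labelled sex, a replicate block, each array left out, arrays against their sex label left out, and 1 or the mean of a gene's probe sets.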

Additional observations from a re-analysis of the deposited data

Results flagged for a closer look

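A test of the difference itself (limma contrast, adjusted p under 0.05) gave 13 results in which a knockout effect differed from that at P7. Cd44 1434376_at passed in both contrasts, so fewer than 13 probe sets are named. In the contrast of cultures and P7, calls were common among all probe sets, by the shares given above. For P30 against P7 the results were Cd44 1423760_at at 1.59 and Cd44 1434376_at at 1.84 on the log2 scale. For granule cell cultures against P7 they were Hspb1 1422943_a_at at 1.28 and 1425964_x_at at 1.54, Osmr 1418674_at at 1.41, Tspo 1416695_at at 0.98, 1438948_x_at at 0.61 and 1456251_x_at at 0.65, Ptx3 1418666_at at 0.96, Cd44 1434376_at at 0.71 and 1452483_a_at at 0.65, and Steap4 1425829_a_at at -0.79 and 1460197_a_at at -1.53.

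In 5 groups of 4 arrays 1 array stood far from the other arrays of its group by Dixon's test, where chance gives about 1 in 20. These were S1pr3 1460661_at on P7 knockout array 1 (0.32), Tspo 1456251_x_at on granule cell wild type array 7 (-0.41) and on P7 wild type array 2 (-0.07), Hspb1 1425964_x_at on P7 wild type array 1 (-0.13), and Ptx3 1456903_at on granule cell wild type array 4 (-0.0778). In all, 87 groups were tested.

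The 3 control probe sets for 18S ribosomal RNA, which no comparison used, had a mean of 3.39 on P7 knockout array 5, and between -0.40 and 0.64 on the other P7 arrays.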

How the results depend on the processing

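Of 1146 alternative values for 59 single results, 1075 kept direction and side of the threshold, 40 were weaker, 30 were stronger and 1 reversed, Osmr 1418675_at in the cultures, at -0.0417 without the arrays against their sex label. The 4 called probe sets at P30 became 2 in 1 fit over all groups, 2 with labelled sex as a covariate, which at P30 amounts to leaving out knockout array 1, and 0 with the methods' t-test corrected over all probe sets. With its correction limited to probe sets that pass the fold, that test called 5 at P30, the same 4 and Cd44 1452483_a_at (adjusted p = 0.0275), and 2 in the cultures, both of Hspb1, while Steap4 1460197_a_at had an adjusted p of 0.0167 against 0.01. The P30 count was between 1 and 4 with an array left out (1 without wild type array 1 or 2). Deviations of arrays with the same number correlated at 0.01, 0.05 and 0.17 at P7 and at -0.04, -0.18 and -0.03 at P30. Not every array correlated best with its own number, and so few arrays cannot decide whether numbers pair the samples. With the replicate number as a block, 1 probe set was called at P30 and 0 at P7. No paired analysis was possible in the cultures because the genotypes share no numbers. The 3 called in the cultures became 10 in 1 fit over all groups, 0 with the methods' t-test corrected over all probe sets, and between 2 and 4 with an array left out. Without the 4 arrays against their sex label 0 were called, but that fit holds 1 knockout and 2 wild type cultures and says nothing about stability; Hspb1 was at 1.3 and 1.63 and Steap4 1460197_a_at at -2.20 in it. The P7 count of 0 was between 0 and 1 with an array left out. The differences between P30 and P7 numbered 5 in place of 2 with array weights (both of Cd44, S1pr3 1438658_a_at, Tspo 1416695_at and Cp 1448735_at) and 2 with each array left out, and those between cultures and P7, 11, numbered between 9 and 15. By gene, the 3 called at P30 became 1 (Cd44) with the mean of a gene's probe sets, and the 2 called in the cultures became 1 (Hspb1) with 1 probe set per gene. The causes were not tested.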
